A study of Mus musculus with 10 samples.

Results

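The 48 genes described here encode the proteins that copy DNA and repair it, and they were chosen by symbol from the rows of a table of intronic Bru-seq values in mouse embryonic stem (ES) cells. All 48 listed symbols were present among the 24901 rows of that table, and the rule uses no measured value, although the set was drawn up with earlier results of these data known. Bru-seq labels RNA that is being made: the cells were given bromouridine (BrU) at 2 mM for 10 min, the labelled RNA was captured with an antibody, depleted of ribosomal RNA and sequenced. The values are reads in introns scaled to intron length and library size (RPKM), so they follow unspliced, newly made RNA and not mature mRNA. The cells carried wild-type Elongin A (EloA_WT), Elongin A with lysine 754 changed to methionine (EloA_K754M) or to arginine (EloA_K754R), or no Eed (Eed_null), which is part of the core of Polycomb repressive complex 2, beside a further wild type named CJ7 (CJ7_WT). Each of the 5 groups had 2 samples. The EloA_WT, EloA_K754M and EloA_K754R samples each had a column of their own, whereas CJ7_WT and Eed_null were each deposited as 1 column that the authors named an average, so those 2 groups carry no replicate spread. All groups were grown with leukaemia inhibitory factor, 1 µM PD0325901 (an inhibitor of MEK) and 3 µM CHIR99021 (an inhibitor of GSK3). The labels name both a fibroblast feeder layer from which the ES cells were separated and, for the BrU labelling, gelatin-coated dishes without feeders.

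The labels limit the comparisons. They give the line as CCE28 for EloA_WT and for Eed_null and as CJ7 for EloA_K754M, EloA_K754R and CJ7_WT, while the growth protocol names CJ7 for all samples. EloA_K754M and EloA_K754R therefore differed from EloA_WT in the labelled line as well as in the allele, as did Eed_null from CJ7_WT, and line and genotype cannot be told apart. The Eed_null samples also carry a genotype label that names EloA, and their titles and column name were followed here. How many clones were edited, and whether replicates were separate cultures, is not given in the sources used here, so p-values measure the spread between these libraries only.

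As background, replication starts where the origin recognition complex (Orc genes), with Cdc6 and Cdt1, loads the ring-shaped MCM helicase onto DNA, a step that geminin (Gmnn) restrains. The kinase Cdc7 together with Cdc45, Mcm10 and the GINS complex turns the loaded rings into moving helicases, and the primases, polymerases, the sliding clamp PCNA with its RFC loader, and the single-strand binding RPA proteins then copy the strands. Many of these genes are targets of E2F transcription factors, and ES cells, which divide fast, transcribe them at high rates.

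Promoters of 6 of the genes are shown because these genes had the smallest p-values, in either mutant against EloA_WT, among members with a single promoter in the reference table. Each stretch runs from 250 bases before to 30 bases after the RefSeq start on the gene's own strand, with GRCm38.p6 positions, whereas the deposited values rest on mm9. Capitals mark the E2F site words TTTCCCGC, TTTCGCGC, TTTGCCGC and TTTGGCGC and the NF-Y word CCAAT on either strand (GCGGGAAA and ATTGG are the reverse strand of TTTCCCGC and CCAAT).
Rpa2 (chr4:132768110-132768389, plus strand): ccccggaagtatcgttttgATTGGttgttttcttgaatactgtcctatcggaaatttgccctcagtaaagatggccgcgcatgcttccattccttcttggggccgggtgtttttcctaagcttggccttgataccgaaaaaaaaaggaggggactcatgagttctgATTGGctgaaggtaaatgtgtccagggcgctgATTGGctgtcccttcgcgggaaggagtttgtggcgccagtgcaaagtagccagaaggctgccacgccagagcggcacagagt
Msh6 (chr17:87974800-87975079, plus strand): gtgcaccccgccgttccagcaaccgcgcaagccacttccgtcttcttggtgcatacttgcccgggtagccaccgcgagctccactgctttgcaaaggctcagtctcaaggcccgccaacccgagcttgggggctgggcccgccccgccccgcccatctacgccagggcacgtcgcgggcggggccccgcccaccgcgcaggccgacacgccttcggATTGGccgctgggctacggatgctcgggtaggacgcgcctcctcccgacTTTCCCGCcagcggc
Cdc6 (chr11:98907901-98908180, plus strand): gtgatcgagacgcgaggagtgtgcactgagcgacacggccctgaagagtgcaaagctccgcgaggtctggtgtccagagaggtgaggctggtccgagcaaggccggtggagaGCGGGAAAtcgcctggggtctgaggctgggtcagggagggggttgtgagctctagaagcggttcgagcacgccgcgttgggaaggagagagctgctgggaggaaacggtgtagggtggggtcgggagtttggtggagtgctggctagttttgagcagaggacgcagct
Brca1 (chr11:101551926-101552205, minus strand): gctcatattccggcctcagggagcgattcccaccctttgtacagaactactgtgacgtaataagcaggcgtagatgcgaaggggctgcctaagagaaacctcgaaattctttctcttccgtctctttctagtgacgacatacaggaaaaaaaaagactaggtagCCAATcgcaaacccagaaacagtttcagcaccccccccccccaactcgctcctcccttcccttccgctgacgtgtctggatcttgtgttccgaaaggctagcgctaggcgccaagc
Rpa1 (chr11:75348354-75348633, minus strand): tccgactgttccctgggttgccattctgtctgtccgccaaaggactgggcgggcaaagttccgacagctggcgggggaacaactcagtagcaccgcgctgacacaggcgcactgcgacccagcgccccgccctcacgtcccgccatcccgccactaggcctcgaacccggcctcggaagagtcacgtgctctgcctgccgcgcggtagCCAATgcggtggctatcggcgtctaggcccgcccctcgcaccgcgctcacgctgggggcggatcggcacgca
Pcna (chr2:132253151-132253430, minus strand): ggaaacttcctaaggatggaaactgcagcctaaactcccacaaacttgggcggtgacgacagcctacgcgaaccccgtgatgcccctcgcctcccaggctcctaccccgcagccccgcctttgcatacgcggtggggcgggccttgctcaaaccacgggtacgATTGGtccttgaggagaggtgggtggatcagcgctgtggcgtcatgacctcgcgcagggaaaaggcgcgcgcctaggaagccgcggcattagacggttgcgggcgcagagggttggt
In these stretches, 1 E2F word stands 15 bases after the start of Msh6, on the gene's strand, and 1 stands 138 bases before the start of Cdc6, on the other strand. Rpa2, the 1 member that passed the test in EloA_K754R, had no E2F word and 3 CCAAT words. Brca1 and Pcna each had 1 CCAAT word and Rpa1 had 2, of which the second lies past the printed end. Over the full windows (250 bases before to 50 after a start), 39 of the 48 members were matched in 47 windows. An E2F word was present in 14 of these windows (29.8%), each belonging to a different gene, against 744 of all 32851 windows in the table (2.26%). CCAAT was present in 27 of the 47 windows (57.4%) against 37.4% of all windows. Among the MCM genes, Mcm6 had 3 E2F words, and Mcm3, Mcm5 and Mcm7 had 2 each in 1 window. Mcm8 had 1, while Mcm2, Mcm10 and the second window of Mcm7 had 0, and Mcm4 was not matched. These are matches of letters and not measured sites. The 14 genes with an E2F word had a median log2 change of −0.14 in EloA_K754M and −0.22 in EloA_K754R, and the 25 matched genes without one had medians of −0.24 and −0.29.

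Across the table, between 26819778 and 39582345 whole counts per library were recovered for the 6 Elongin A libraries, 88214545 for the CJ7_WT column and 73290332 for the Eed_null column. Every test rested on 2 libraries per group. Tceb3, which encodes Elongin A, had 1.83 and 2.03 RPKM in EloA_WT against 1.46 and 1.98 in EloA_K754M and 1.12 and 1.30 in EloA_K754R, 1.51 in CJ7_WT and 1.89 in Eed_null, and a substitution cannot be read from intronic signal. Eed had 10.0 RPKM in CJ7_WT and 7.97 in Eed_null, so its intronic signal was not lost in the column labelled null and does not check that label. Of 10 ES cell markers, 9 were in the table, with a summed level of 139 to 187 RPKM over the 8 columns and none at 0 in any. Single markers differed between columns in both directions. Pou5f1 had 19.2 and 24.7 RPKM in EloA_WT against 7.45 in CJ7_WT and 9.38 in Eed_null. Nanog had 21.5 and 24.0 in EloA_WT against 39.1 in CJ7_WT and 33.6 in Eed_null. The 18 fibroblast markers summed to 7.17 and 8.02 RPKM in EloA_WT, to 10.7 and 13.2 in EloA_K754M, to 11.0 and 14.0 in EloA_K754R, to 13.2 in CJ7_WT and to 15.9 in Eed_null. Their sum was thus higher in all mutant libraries than in both EloA_WT libraries (1 marker, Lum, was at 0 in the first of these), and its part in the results below was not tested. In each group the second library had a higher first-quartile RPKM (0.041, 0.110 and 0.050) than the first (0.014, 0.014 and 0.015, for EloA_WT, EloA_K754M and EloA_K754R in turn).

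Most of the 48 genes had lower intronic signal in both Elongin A mutants than in EloA_WT, by small amounts that single genes rarely carried past the test. The log2 change, on the scale of log2(RPKM + 0.1), was below 0 for 44 of 48 members in EloA_K754M, where 57.4% of the 15161 tested genes were below 0, and for 37 of 48 in EloA_K754R, where 64.5% were. The members' median change was −0.19 in EloA_K754M against −0.06 over all tested genes, and −0.25 in EloA_K754R against −0.14. Both libraries of EloA_K754M lay below both of EloA_WT for 23 members (27.2% of all genes did so) and above for 2 (17.0%), and both of EloA_K754R lay below for 28 (38.8%) and above for 5 (18.0%). All 4 mutant libraries lay below both EloA_WT libraries for 17 members, against 18.8% of all genes. Both comparisons use the same 2 EloA_WT libraries, so that count is not 2 independent observations.

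By library, the members' median deviation from the EloA_WT mean was −0.15 and −0.25 in the 2 EloA_K754M libraries, and −0.22 and −0.26 in the 2 of EloA_K754R. All genes had medians of −0.06 and −0.05, and of −0.14 and −0.13, in the same libraries. The 2 EloA_WT libraries, measured from their own mean, had medians of −0.01 and 0.01 over the members and of 0.04 and −0.04 over all genes, so members and all genes also stood apart within the wild type, in opposite directions in its 2 libraries. For single genes, the median SD between replicates was 0.195 on the log2 scale. When the columns were shifted to equal medians, which moved the median of all genes in EloA_K754R from −0.14 to 0.05, the members' median became −0.06 in EloA_K754M and −0.05 in EloA_K754R.

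**Figure D1:**
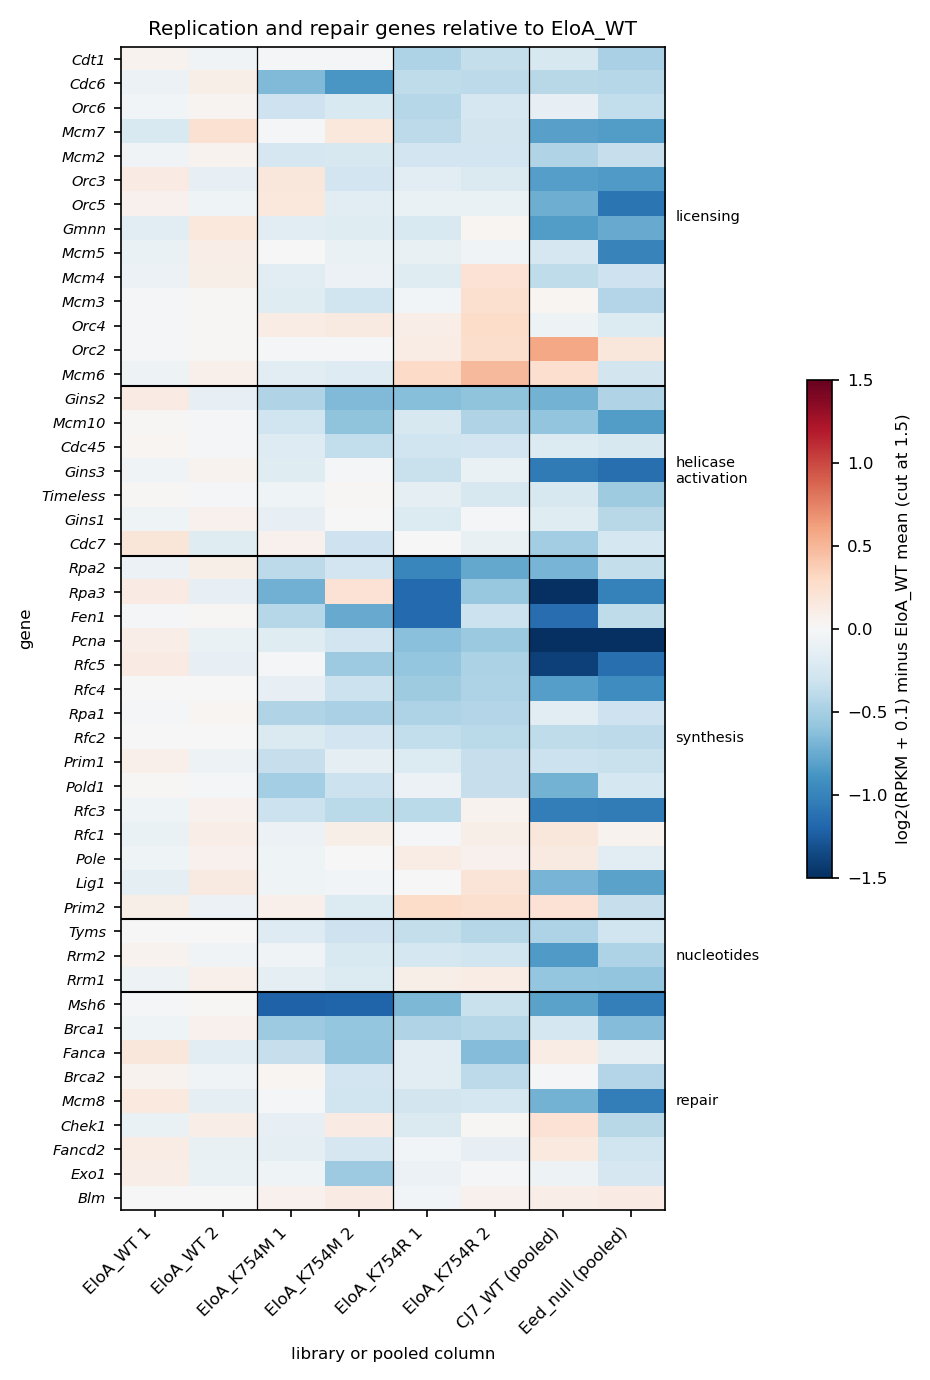
Deviation of each of the 48 genes (rows, grouped by role) from the mean of the 2 EloA_WT libraries, in log2(RPKM + 0.1), for the 6 libraries and 2 pooled columns; colours stop at 1.5 on either side. Blue predominates in both mutants, with Msh6 and Cdc6 lowest in EloA_K754M and Rpa2, Rpa3 and Fen1 lowest in EloA_K754R, while Mcm6 is red in EloA_K754R.

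With limma's moderated test and Benjamini-Hochberg adjustment over all tested genes, 1 member passed the threshold of 0.05, Rpa2 in EloA_K754R. In that comparison 2.79% of the tested genes were called lower and 0.686% higher. At an unadjusted p under 0.05, 16 members were lower in EloA_K754R (18.9% of all genes) and 1 was higher (6.19%). In EloA_K754M, limma called 0 members, where 0.204% of all genes were called lower and 0.0132% higher. There 8 members were lower at an unadjusted p under 0.05 (10.7% of all genes) and 0 higher (4.65%). Voom, a count-based weighting in limma run on the recovered counts, called 2 members in EloA_K754M, Msh6 and Brca1, among 347 genes called. In EloA_K754R voom called 4 members, Rpa1, Msh6, Brca1 and Rpa2, among 1355 genes called. The labels do not say that replicate numbers pair the libraries. With that number as a block, limma called Msh6 in EloA_K754M, among 227 genes called. In EloA_K754R the block called Rpa1, Pcna, Rpa2 and Gins2, among 1777 genes called. In both comparisons the share of members lower at the unadjusted threshold was above that of all genes, and the share higher was below it. These differences in share were not tested.

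Rpa2 encodes the middle subunit of RPA, the protein that coats single-stranded DNA. Its level was 3.39 and 3.85 RPKM in EloA_WT against 2.74 and 2.94 in EloA_K754M and 1.79 and 2.09 in EloA_K754R, 2.19 in CJ7_WT and 2.79 in Eed_null. The 3 Elongin A groups did not overlap, and EloA_K754R was lowest. Rpa2 fell in EloA_K754R by 0.87 ± 0.13 on the log2 scale (SE, n = 2 libraries per group), or 1.83-fold, with an adjusted p of 0.0402. The log2 change in EloA_K754M was −0.34 ± 0.13 (adjusted p 0.317). With any 1 of the 6 libraries left out the change was −0.97 to −0.76. Such a fit leaves 1 library in a group, and most EloA_K754R calls over all genes were then lost. The loss of the Rpa2 call in those fits is therefore not particular to this gene. The call was lost also without an EloA_K754M library, where both compared groups kept 2 libraries and the change stayed at −0.87. It thus depended on the spread shared over all 6 libraries. The call also did not hold with columns at equal medians (−0.68, adjusted p 0.0971) or with no filter on low genes (0.0583). Rpa2 lies on chromosome 4, whose genes had a median change of −0.30 in EloA_K754R. With the median of each chromosome subtracted the change was −0.55 (adjusted p 0.145), and with the trend on intron length subtracted −0.60 (0.0912).

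The other RPA subunits also had negative changes. Rpa1, the large DNA-binding subunit, had 5.51 and 5.70 RPKM in EloA_WT against 4.08 and 3.96 in EloA_K754M and 4.02 and 4.11 in EloA_K754R, 5.02 in CJ7_WT and 4.49 in Eed_null. Both mutants lay below EloA_WT with tight replicates, with log2 changes of −0.47 ± 0.10 (adjusted p 0.134) and −0.45 ± 0.10 (0.0725). Rpa1 lies on chromosome 11, and with the median of each chromosome subtracted these changes were −0.01 and 0.11. Rpa3, the small subunit, has 2.10 kb of intron and varied more, with 2.56 and 2.16 RPKM in EloA_WT against 1.39 and 2.74 in EloA_K754M and 1.00 and 1.55 in EloA_K754R. The EloA_K754R libraries lay below EloA_WT (−0.86 ± 0.35, adjusted p 0.199), and those of EloA_K754M overlapped it.

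Among the 15 genes for polymerases, primase, clamp and single-strand binding, all 15 had a negative change in EloA_K754M (median −0.25) and 11 did in EloA_K754R (median −0.39). Both mutant libraries lay below EloA_WT for 9 and 10 of the 15. Pcna, the sliding clamp that holds polymerases on DNA, had 17.4 and 15.1 RPKM in EloA_WT against 14.3 and 13.3 in EloA_K754M and 10.5 and 11.0 in EloA_K754R, with 5.29 in CJ7_WT and 5.71 in Eed_null, below all 6 libraries. Its change was −0.59 ± 0.13 in EloA_K754R (adjusted p 0.0698) and −0.23 ± 0.13 in EloA_K754M (0.493). The groups did not overlap, with EloA_WT highest. Of the RFC clamp loader, Rfc4 (−0.50 ± 0.12, adjusted p 0.0787), Rfc5 (−0.53 ± 0.20, 0.178) and Rfc2 (−0.39 ± 0.11, 0.101) lay below EloA_WT in both EloA_K754R libraries, whereas the large subunit Rfc1 had a change of 0.04 ± 0.13 and overlapped it, as did Rfc3 (−0.17 ± 0.18, adjusted p 0.584). Pold1, the catalytic subunit of polymerase delta, was the member with the lowest mean level, with 1.59 and 1.54 RPKM in EloA_WT against 1.07 and 1.23 in EloA_K754M and 1.46 and 1.21 in EloA_K754R (changes of −0.42 ± 0.15 and −0.22 ± 0.15, adjusted p 0.276 and 0.408). Fen1, the nuclease that trims Okazaki fragments, had 3.35 and 3.45 RPKM in EloA_WT against 2.49 and 1.97 in EloA_K754M and 1.46 and 2.69 in EloA_K754R. Pole, the catalytic subunit of polymerase epsilon, and Lig1, which joins Okazaki fragments, had changes between −0.05 and 0.10 in the 2 mutants and overlapped EloA_WT.

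**Figure D2:**
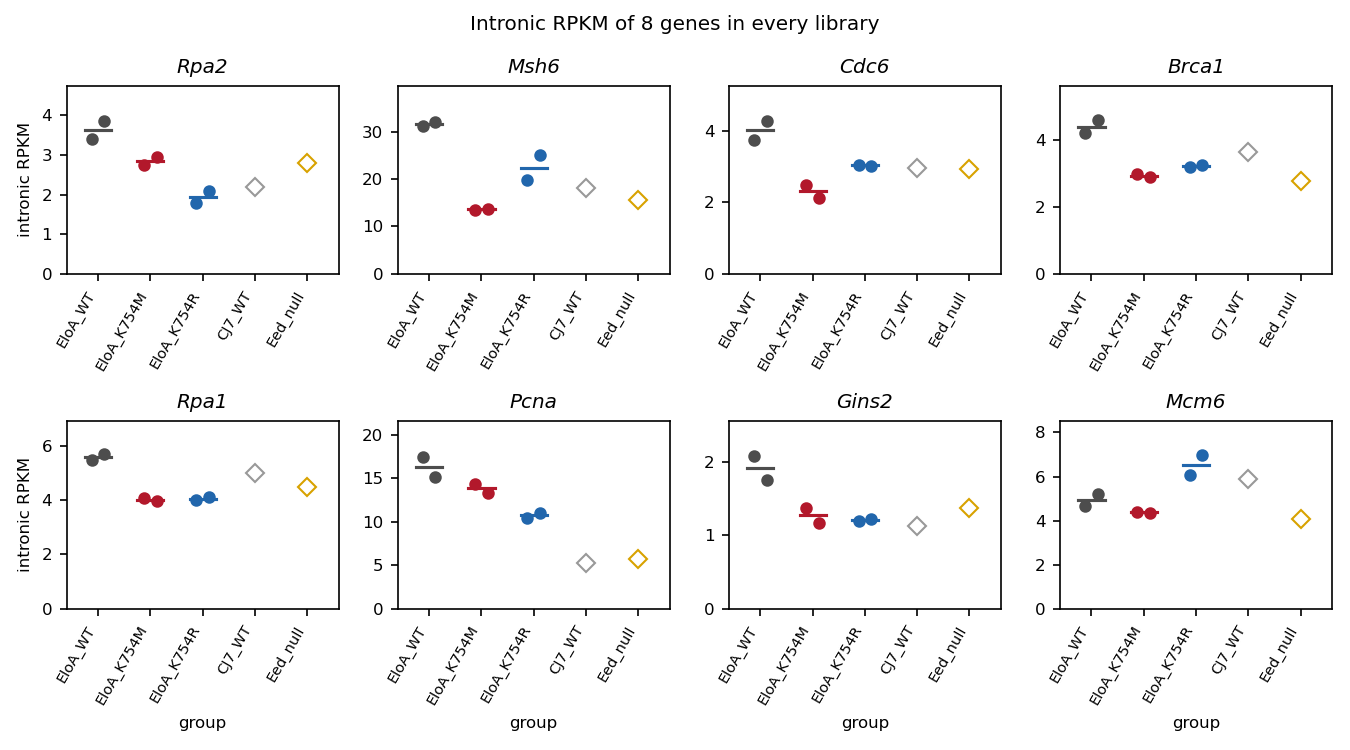
Intronic RPKM of 8 genes (linear axis from 0) in each library of the 3 Elongin A groups (filled points, with a line at the mean of 2) and in the pooled CJ7_WT and Eed_null columns (open diamonds, no spread). Rpa2 and Pcna step down from EloA_WT to EloA_K754M to EloA_K754R, Msh6 and Cdc6 are lowest in EloA_K754M, and Mcm6 is highest in EloA_K754R.

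The 14 genes of origin recognition and licensing had the medians nearest to 0 in both mutants, at −0.09 in EloA_K754M and −0.10 in EloA_K754R. No gene of this group passed the limma test in either mutant. Cdc6, the loader ATPase, had 3.74 and 4.26 RPKM in EloA_WT against 2.49 and 2.13 in EloA_K754M and 3.04 and 3.01 in EloA_K754R, 2.96 in CJ7_WT and 2.93 in Eed_null. Both mutants lay below EloA_WT, and EloA_K754M lay below EloA_K754R (changes against EloA_WT of −0.77 ± 0.13, adjusted p 0.0941, and −0.39 ± 0.13, 0.147). Cdt1, its partner in MCM loading, showed the other order, with 5.72 and 5.36 RPKM in EloA_WT against 5.41 and 5.47 in EloA_K754M and 3.97 and 4.28 in EloA_K754R. Its change was −0.42 ± 0.11 in EloA_K754R (adjusted p 0.0941) and −0.02 ± 0.11 in EloA_K754M.

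The 6 subunits of the MCM ring had changes of both signs in EloA_K754R. In EloA_K754R their log2 changes were 0.39 ± 0.13 for Mcm6, 0.10 ± 0.14 for Mcm3, 0.02 ± 0.17 for Mcm4, −0.08 ± 0.14 for Mcm5, −0.28 ± 0.11 for Mcm2 and −0.34 ± 0.19 for Mcm7. Mcm6 had 4.67 and 5.23 RPKM in EloA_WT against 4.41 and 4.33 in EloA_K754M and 6.06 and 6.96 in EloA_K754R, 5.91 in CJ7_WT and 4.08 in Eed_null. EloA_K754R lay above EloA_WT (adjusted p 0.138) and EloA_K754M below it (−0.17 ± 0.13, adjusted p 0.578). Mcm2 had 6.79 and 7.29 RPKM in EloA_WT against 5.91 and 5.92 in EloA_K754M and 5.76 and 5.77 in EloA_K754R, below EloA_WT in both (adjusted p 0.357 and 0.180). Of the origin recognition subunits, Orc6 lay below EloA_WT in both mutants (−0.27 ± 0.12 and −0.34 ± 0.12), and Orc4 lay above it in both (0.13 ± 0.11 and 0.19 ± 0.11). None of these passed the test.

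The 7 genes of helicase activation and fork progression all had negative changes in both mutants, with medians of −0.12 and −0.21. Gins2, a subunit of the GINS complex that binds the active helicase, had 2.08 and 1.74 RPKM in EloA_WT against 1.37 and 1.17 in EloA_K754M and 1.19 and 1.22 in EloA_K754R, 1.13 in CJ7_WT and 1.37 in Eed_null. Every other column lay below both of EloA_WT, with changes of −0.55 ± 0.15 (adjusted p 0.176) and −0.62 ± 0.15 (0.0770). Mcm10, which helps to activate the helicase, had 5.78 and 5.62 RPKM in EloA_WT against 4.63 and 3.71 in EloA_K754M and 4.80 and 4.14 in EloA_K754R (changes of −0.45 ± 0.15 and −0.35 ± 0.15, adjusted p 0.252 and 0.224). Without the second EloA_K754M library the former was −0.29. Cdc45, a part of the active helicase, had 3.05 and 2.91 RPKM in EloA_WT against 2.60 and 2.29 in EloA_K754M and 2.40 and 2.42 in EloA_K754R (−0.28 ± 0.12 and −0.29 ± 0.12, adjusted p 0.341 and 0.193). The remaining GINS genes, Gins1 and Gins3, had changes of −0.06 to −0.21, and both EloA_K754R libraries lay below EloA_WT for Gins3 but not for Gins1.

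Of the 3 genes that supply nucleotides, Tyms, the synthase of thymidylate, had 5.73 and 5.74 RPKM in EloA_WT against 5.00 and 4.59 in EloA_K754M and 4.46 and 4.24 in EloA_K754R (−0.25 ± 0.11 and −0.39 ± 0.11, adjusted p 0.354 and 0.104). Rrm2, the small subunit of ribonucleotide reductase, had 10.2 and 9.43 RPKM in EloA_WT against 9.44 and 8.33 in EloA_K754M and 8.17 and 7.91 in EloA_K754R (−0.28 ± 0.12 in EloA_K754R, adjusted p 0.229), a sign that turned, to 0.05, with the intron-length trend subtracted. Rrm1, the large subunit of the same enzyme, had 4.07 and 4.53 RPKM in EloA_WT against 3.88 and 3.70 in EloA_K754M and 4.56 and 4.65 in EloA_K754R. Rrm1 and Mcm6 were the 2 members whose mutant libraries lay on opposite sides of both EloA_WT libraries, as did 4.50% of all genes.

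The 9 genes of repair and checkpoint control included the largest change of the set in either mutant against EloA_WT. Msh6, which acts in mismatch repair, was the member with the highest level and had 31.1 and 32.1 RPKM in EloA_WT against 13.6 and 13.7 in EloA_K754M and 19.7 and 25.0 in EloA_K754R, 18.1 in CJ7_WT and 15.5 in Eed_null. All other columns lay below EloA_WT, and the EloA_K754M libraries were lowest, 2.31-fold below EloA_WT. The change was −1.21 ± 0.16 in EloA_K754M (adjusted p 0.0741, 0.00644 with voom) and −0.51 ± 0.16 in EloA_K754R (0.132). Msh6 overlaps Fbxo11, a gene on the opposite strand, and how the counting treated strand is not given in the sources used here, so reads of the 2 genes may not be told apart. Fbxo11 had 4.34 and 4.41 RPKM in EloA_WT against 1.91 and 1.71 in EloA_K754M and 3.85 and 3.24 in EloA_K754R, with a change of −1.23 ± 0.13 in EloA_K754M (adjusted p 0.0510). Unlike Msh6, Fbxo11 was not lower in the pooled columns, at 5.02 in CJ7_WT and 4.51 in Eed_null.

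Brca1, which acts in repair by homologous recombination, had 4.20 and 4.59 RPKM in EloA_WT against 2.98 and 2.90 in EloA_K754M and 3.19 and 3.25 in EloA_K754R, 3.64 in CJ7_WT and 2.77 in Eed_null. Both mutants lay below EloA_WT (−0.56 ± 0.11, adjusted p 0.109, and −0.44 ± 0.11, 0.0846). Brca2, its partner in the same pathway, had −0.13 ± 0.16 and −0.28 ± 0.16. The checkpoint kinase gene Chek1, the helicase gene Blm and the nuclease gene Exo1 overlapped EloA_WT in EloA_K754R, with changes of −0.11 to 0.01. In all, 21 of the 48 members overlap another annotated gene, among them Msh6, Gins2, Cdc45, Cdt1, Rrm1, Prim2, Rfc2, Rfc4, Rfc5 and Fen1, whereas Rpa2, Rpa1, Pcna, Cdc6, Brca1, Mcm6 and Tyms do not.

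Position and intron length moved with these values. The 3 members on chromosome 11 were Cdc6, Brca1 and Rpa1, and the 1314 tested genes of that chromosome had median changes of −0.46 in EloA_K754M, −0.56 in EloA_K754R and −0.44 in CJ7_WT against EloA_WT, lower than on any other chromosome. With each chromosome's median subtracted, the EloA_K754M changes were −0.31 for Cdc6, −0.10 for Brca1 and −0.01 for Rpa1. The EloA_K754R changes of the same 3 genes turned positive, at 0.18, 0.13 and 0.11. Msh6, on chromosome 17, had −1.10 in EloA_K754M on that scale, and Pcna, on chromosome 2, had −0.50 in EloA_K754R. Chromosome number was not measured, and what moves chromosome 11 was not tested.

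In EloA_K754R, members with short introns had the more negative changes. Spearman's rho between a member's change and its summed intron length was 0.55 in EloA_K754R and 0.31 in EloA_K754M (n = 48 genes, which share libraries and are not independent), against 0.33 and 0.12 over 14167 genes. The 16 members with under 10 kb of intron had a median of −0.37 in EloA_K754R and the other 32 of −0.11, while all genes had −0.30 and −0.06 in these classes. With the length trend subtracted, the members' median was −0.03 in EloA_K754R against 0.01 over all genes, and −0.11 against 0.01 in EloA_K754M. With the chromosome medians subtracted it was −0.04 against 0.00, and −0.14 against 0.01. Members minus all genes thus came to −0.05 and −0.04 on these 2 scales in EloA_K754R, where it had been −0.11, and to −0.12 and −0.14 in EloA_K754M, where it had been −0.14. Leaving out the second EloA_WT library, with no such subtraction, also gave −0.05 in EloA_K754R and −0.11 in EloA_K754M. Leaving out the first EloA_WT library instead gave −0.14 in EloA_K754R and −0.16 in EloA_K754M.

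**Figure D3:**
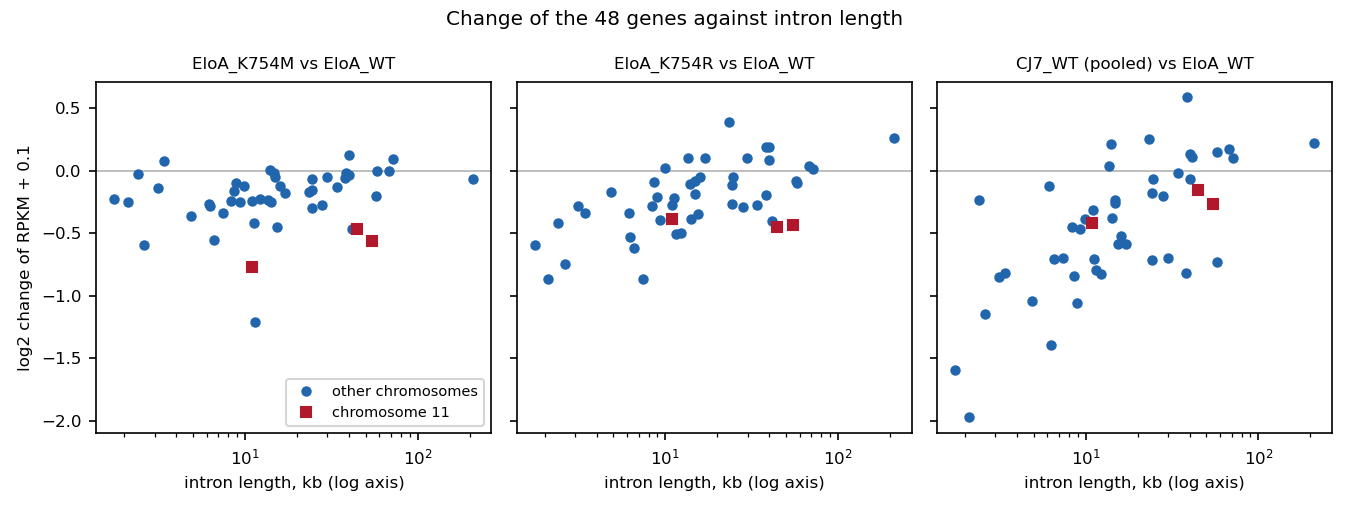
Log2 change of each of the 48 genes (points) against its summed intron length in kilobases (log axis) for EloA_K754M, EloA_K754R and the pooled CJ7_WT column, each against EloA_WT; squares are the 3 genes on chromosome 11. In the EloA_K754R and CJ7_WT panels the lowest values belong to genes with under 10 kb of intron, and the 3 squares lie below 0 in all panels.

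The 2 substitutions were also compared with each other. The members' median difference, EloA_K754M minus EloA_K754R, was 0.03 against 0.09 over all genes, and it turned negative (−0.03) with columns at equal medians. It was below 0 for 22 of 48 members, where 39.4% of all genes were. No member passed the limma test, where 0.178% of all genes were called lower and 0.112% higher. At an unadjusted p under 0.05, 3 members were lower in EloA_K754M (6.87% of all genes) and 3 higher (11.6%). Voom called 1 member, Msh6 (adjusted p 0.0385), among 453 genes called. The 3 lower genes were Msh6 (−0.70 ± 0.16, adjusted p 0.122), Mcm6 (−0.56 ± 0.13, 0.118) and Cdc6 (−0.38 ± 0.13, 0.217). The 3 higher genes were Rpa2 (0.53 ± 0.13, 0.135), Cdt1 (0.39 ± 0.11, 0.158) and Pcna (0.36 ± 0.13, 0.237). In each of these 6 genes the 2 mutants did not overlap. Over all 48, the EloA_K754M libraries lay below those of EloA_K754R for 11 members (18.6% of all genes) and above for 11 (31.9%). With limma, a difference between the substitutions was not shown for any member at this number of libraries.

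CJ7_WT, the wild type whose label the mutants share, had lower values than EloA_WT for most members. Its pooled value lay below both EloA_WT libraries for 36 members (53.1% of all genes) and above both for 9 (28.8%), with a median difference of −0.40 against −0.20 over all genes. Rpa3 (−1.97), Pcna (−1.60), Rfc5 (−1.39) and Fen1 (−1.14) had the most negative differences, and all 4 have under 10 kb of intron. Orc2, a core subunit of the origin recognition complex, had the highest, with 5.05 RPKM in CJ7_WT against 3.29 and 3.38 in EloA_WT (0.58). With columns at equal medians, 26 members lay below and 13 above, where 38.3% and 43.9% of all genes did. Spearman's rho with intron length was 0.65 over the members and 0.40 over all genes. With the length trend subtracted, 25 members lay below and 11 above, where 40.8% and 40.2% of all genes did. For Rpa2, Pcna, Gins2, Msh6, Cdc6, Rpa1 and Brca1 the CJ7_WT value lay on the same side of EloA_WT as the mutants did. The differences were −1.60 for Pcna, −0.80 for Msh6, −0.71 for Gins2, −0.70 for Rpa2 and −0.42 for Cdc6, but only −0.27 for Brca1 and −0.16 for Rpa1, and equal medians moved the median of all genes from −0.20 to 0.05.

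Eed_null was compared with CJ7_WT without a test, since each is 1 column. The members' median difference was −0.11 against 0.11 over 14890 genes, and 34 of 48 members were below 0, where 38.2% of all genes were. With the columns at equal medians the 2 medians were −0.27 and −0.04. Past 1.5-fold on the log2(RPKM + 0.1) scale, 2 members were lower (5.37% of all genes) and 2 higher (16.0%). Mcm5, an MCM ring subunit, had 13.0 RPKM in CJ7_WT and 7.73 in Eed_null, a ratio of 0.593 (exact 95% interval 0.573 to 0.614). That interval and those that follow leave out replicate error and were computed on the recovered counts divided by 2. For Mcm6, Rpa3, Fen1 and Pold1 the recovered counts were already on a halved scale. Dividing them again made their intervals wider than those of the other named genes would be at equal depth. Chek1, the kinase that halts the cycle when replication stalls, had 4.46 and 2.84 RPKM, a ratio of 0.636 (0.598 to 0.677). Prim2, a primase subunit, had 2.21 and 1.47 RPKM (0.663, 0.649 to 0.678) and Mcm6 had 5.91 and 4.08 (0.691, 0.653 to 0.731). These were the 4 lowest ratios of the 48 and are named for that.

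At the other end, Rpa3 had 0.525 RPKM in CJ7_WT and 1.11 in Eed_null, a ratio of 2.12. Its interval of 1.29 to 3.56 is wide in part because its counts were divided again. Fen1 had 1.48 and 2.59 RPKM (1.75, 1.33 to 2.30), Pold1 0.918 and 1.29 (1.41, 1.18 to 1.67) and Rrm2 5.40 and 7.08 (1.31, 1.19 to 1.44). Fen1 and Rpa3 have introns of 2.62 and 2.10 kb, and in both the Eed_null value was nearer to EloA_WT than the CJ7_WT value was. This did not hold for the set, whose median deviation from the EloA_WT mean was −0.43 in Eed_null and −0.40 in CJ7_WT. The order followed intron length over the members, with Spearman's rho of −0.59 (n = 48) against −0.11 over 13989 genes. Members with under 10 kb of intron had a median of 0.10 and the others of −0.23, and all genes had 0.20 and 0.05. With the length trend subtracted, 1 member (Rpa3) was past 1.5-fold higher and 4 (Mcm5, Chek1, Mcm6 and Prim2) lower. With equal medians 2 were higher and 6 lower. That scaling lowered every ratio alike, moving the median of all genes from 0.11 to −0.04, so more genes pass the lower line by the shift alone. The shares of all genes given above belong to the unscaled ratio, so these counts stand without a background. By role, the repair and checkpoint genes had the lowest median (−0.32, with 8 of 9 below 0) and the 3 nucleotide genes the highest (0.17).

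**Figure D4:**
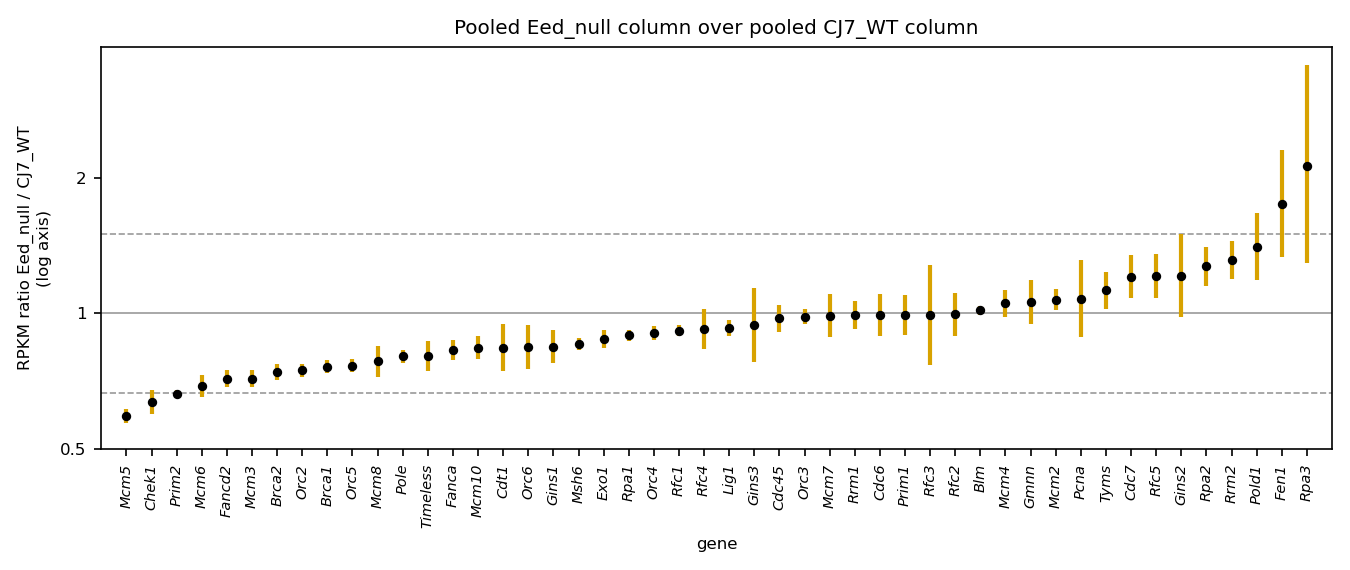
Ratio of the pooled Eed_null to the pooled CJ7_WT RPKM (log axis) for the 48 genes in order of the ratio, with exact 95% intervals for counting error on the recovered counts divided by 2. Genes whose recovered counts were already on a halved scale have wider intervals for that reason. There is no replicate error. Dashed lines mark 1.5-fold on the plain RPKM ratio, on which Prim2 (0.663) also lies past the line.

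Other genes of the same processes, fixed by name and no members, gave the setting. Of 40 tested further replication factors, 32 had a negative change in EloA_K754M and 30 in EloA_K754R, with medians of −0.22 and −0.27. Limma called 0 of them in EloA_K754M and 3 lower in EloA_K754R, where 2.79% of all genes were. These were Pold2, a subunit of polymerase delta (2.75 and 2.92 RPKM in EloA_WT against 1.59 and 2.07 in EloA_K754M and 1.08 and 1.24 in EloA_K754R, change −1.22 ± 0.16, adjusted p 0.0334), Top2a, topoisomerase II alpha (−0.74 ± 0.13, 0.0470), and Clspn, which carries the checkpoint signal to Chek1 (−0.73 ± 0.12, 0.0442). Of 83 further repair and checkpoint genes, 66 and 60 had negative changes, with medians of −0.14 and −0.19. In EloA_K754R, 2 of the 83 were called lower, no larger a share than the 2.79% of all genes, Rad1 of the checkpoint clamp (−0.66 ± 0.11, 0.0455) and Eme1, a subunit of a junction-cutting nuclease (−0.90 ± 0.12, 0.0343). Pold2, Top2a and Eme1 lie on chromosome 11.

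Among 25 E2F, RB and S-phase cyclin genes, 16 had a negative change in EloA_K754M and 18 in EloA_K754R, with medians of −0.21 and −0.11. In EloA_K754R, limma called 1 of the 25 higher and 1 lower, where 0.686% and 2.79% of all genes were. Rb1, the retinoblastoma protein that restrains E2F, had 0.707 and 0.620 RPKM in EloA_WT against 0.816 and 0.919 in EloA_K754M and 1.55 and 1.51 in EloA_K754R, 1.33 in CJ7_WT and 1.01 in Eed_null. It rose in EloA_K754R by 1.10 ± 0.14 on the log2 scale (adjusted p 0.0319). E2f2, an activating E2F, had 0.979 and 1.03 RPKM in EloA_WT against 0.871 and 0.867 in EloA_K754M and 0.558 and 0.568 in EloA_K754R (−0.73 ± 0.13, adjusted p 0.0471). No gene of the 3 lists was called in EloA_K754M or between the mutants. In the EloA_K754M comparison 9, 9 and 1 genes of the 3 lists were lower and 1, 1 and 0 higher at an unadjusted p under 0.05, where 10.7% of all genes were lower and 4.65% higher. In EloA_K754R these counts were 15, 17 and 5 lower (18.9% of all genes) and 2, 2 and 1 higher (6.19%). Between the mutants 4, 5 and 2 were lower and 5, 8 and 3 higher (6.87% and 11.6% of all genes). Each of the 7 calls was lost with chromosome medians subtracted, Rb1 (on chromosome 14, whose genes had a median of 0.25 in EloA_K754R) having then 0.83 at an adjusted p of 0.0708. With any 1 library left out all 7 changes kept their sign, and their calls were lost along with most EloA_K754R calls over all genes. With columns at equal medians 2 of the 7 were called, Eme1 and Rb1, and with the length trend subtracted 1, Rb1. Over all tested genes, EloA_K754R had 104 calls higher and 423 lower, and with columns at equal medians 164 higher and 160 lower.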

How the data were processed

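Bru-seq libraries of mouse ES cells were analysed from 1 deposited table of intronic RPKM. Reads were aligned with BWA to mm9, per the submitters' processing notes; versions, gene annotation, strand handling and the reads that set the library size are not stated in the sources used here. The RPKM values were made by the authors; all 8 columns were used. RPKM are not counts, so log2(RPKM + 0.1) was tested with limma 3.58.1 (R 4.3.3; linear model of 3 groups, moderated variance with a trend, two-sided) over the 15161 genes whose mean over the 6 Elongin A libraries reached 0.1 RPKM. All 48 members passed this filter. P-values were adjusted by Benjamini-Hochberg over all tested genes, with a threshold of 0.05; the fit had 3 residual and 2.76 prior degrees of freedom. The script was tested on simulated data.

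Whole counts were recovered from the steps of the RPKM values (tolerance 0.01) for 20814 of 20817 eligible genes (99.986%), and for 0 of 300 genes whose values were shifted by 0.5%. Where the step matched the full intron length, 66.0% of recovered counts were even, against 50.4% where it was doubled, so a count may stand for a read or for each mate of a pair, and intervals use the counts divided by 2. Genes with a doubled step had counts already on a halved scale and were divided again, which made their intervals wider. RPKM of the pooled columns were compared without a test. Intron lengths, chromosomes and overlapping genes came from GENCODE vM21 and promoters from RefSeq (GRCm38.p6).

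Members and lists were chosen with earlier results of these data known. Named were members called, the 2 of each role with the smallest p in each mutant, the 4 largest rises and falls in Eed_null, the highest and lowest level, and called genes of the other lists; further genes were named to complete a complex or pathway after their values were seen. Alternatives were the pseudocount, the filter, equal medians, the replicate block, voom, chromosome medians and leaving out libraries; subtraction of the intron-length trend, and both other scalings of CJ7_WT, were added after seeing the data.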

Additional observations from a re-analysis of the deposited data

How the results depend on the processing

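The members' median change stayed below 0 in both mutants under every alternative run, and the median between the mutants did not keep its sign. In EloA_K754M it was −0.0635 with equal library medians and −0.1137 with the length trend removed. In EloA_K754R it was −0.1776 with a pseudocount of 1, −0.2789 with voom, −0.0526 with equal medians, −0.0421 with chromosome medians removed and −0.0328 with the length trend removed. Between the mutants it was −0.0323, −0.1038 and −0.0666 with equal medians, chromosome medians removed and the length trend removed. Leaving out 1 library gave −0.2501 to −0.153, −0.2573 to −0.2231 and −0.0388 to 0.0463 in the 3 comparisons, the lowest of the last without the first EloA_K754M library.

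Called members numbered 0 in EloA_K754R with no filter, equal medians, chromosome medians removed or the length trend removed. Leaving out any 1 library removed the member call along with most EloA_K754R calls over all genes. Voom called 2 in EloA_K754M, 4 in EloA_K754R (Rpa1, Msh6, Brca1 and Rpa2) and 1 between the mutants. The labels do not say that replicate numbers pair the samples, and same-numbered libraries had correlated deviations of 0.166, 0.197 and 0.152; with the replicate number as a block, 1 member was called in EloA_K754M (Msh6), 4 in EloA_K754R (Rpa1, Pcna, Rpa2 and Gins2) and 0 between the mutants. The block gave 227, 1777 and 355 calls over all genes, where 33, 527 and 44 were called without it.

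Over all genes, voom gave 347, 1355 and 453 calls in EloA_K754M, EloA_K754R and between the mutants (243, 964 and 234 of them lower). No filter gave 16, 160 and 26, equal medians 16, 324 and 68, and chromosome medians removed 19 and 95 in the mutants (34 higher and 61 lower in EloA_K754R). The length trend removed gave 38 in EloA_K754M (7 higher, 31 lower), 276 in EloA_K754R (111 higher, 165 lower) and 86 between the mutants. Between the mutants, a pseudocount of 1 gave 27 and a filter at 0.5 RPKM 12. Leaving out 1 library gave 2 to 52, 1 to 9 and 5 to 62 calls, and the direction of the calls turned without the first EloA_K754M library (43 higher and 9 lower in EloA_K754M, where 2 and 31 were called with all libraries, and 53 and 9 between the mutants, where 17 and 27 were) and without the second (9 and 2, and 10 and 1); with 1 library left in a group, that library was assumed to vary like the others. The causes of these changes were not tested.

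Signs turned for Brca1 (0.1318), Cdc6 (0.1782) and Rpa1 (0.1146) in EloA_K754R with chromosome medians removed and for Rrm2 (0.0535) with the length trend removed. With 1 library left out, some values differed by over 1.5 times from the value with all libraries. In EloA_K754M these were Mcm10 (range −0.61 to −0.29) and Rrm1 (−0.25 to −0.10). Mcm10 was nearest to 0 without the second EloA_K754M library and Rrm1 without the second EloA_WT library. In EloA_K754R they were Msh6 (−0.68 to −0.34) and Fen1 (−1.16 to −0.33). Both were nearest to 0 without the first EloA_K754R library and farthest without the second. For other genes, too, the ends of the range could differ by over 1.5 times from each other. Of the other values for single genes under an alternative, 480 kept their direction and side of the threshold, 76 fell short of it (all among Rpa2 and the 7 called genes of the other lists) and 10 passed it. For Eed_null, a pseudocount of 1 left 0 members past 1.5-fold higher and 1 lower, equal medians gave 6 lower, and the length trend removed 1 higher and 4 lower. These counts stand without the shares of all genes on the same scales.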
